A study of Homo sapiens with 2 samples.

Results

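Serine synthesis and one-carbon metabolism were described through 9 genes of 36601 in the deposited matrix, taken by gene symbol: PHGDH, PSAT1 and PSPH, which make serine, and SHMT1, SHMT2, MTHFD1, MTHFD2, MTHFD1L and ALDH1L2, which pass its carbon through folate. PC9 cells, an EGFR-mutant lung adenocarcinoma line of human origin, were infected as 1 pool with lentivirus carrying single guide RNAs (sgRNAs) and selected with puromycin. The labels also name polybrene. Each cell was read by droplet 3′ RNA sequencing together with its sgRNA, and counts are unique molecular identifiers (UMIs), which count molecules rather than reads. Since the labels use knockout in one place, and knockdown with the non-cutting dCas9 in another, the kind of perturbation is not settled here, and they give both day 7 and day 8 after transduction.

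Cells were grouped by the target of their sgRNA. The groups were ATF4 with 6 sgRNAs in 859 cells, PGAM1 with 4 sgRNAs in 333 cells, CTNNB1 with 6 sgRNAs in 1552 cells, JUN with 6 sgRNAs in 836 cells, CTCF with 6 sgRNAs in 1182 cells and MYC with 2 sgRNAs in 68 cells, against 4 non-targeting sgRNAs in 700 cells. All groups share the line, the culture, the infection and the selection, and the labels name fewer target families than the 6 targets in the matrix. The labels also describe several sgRNAs on 1 vector, whereas each sgRNA was treated here as delivered singly. In 10.1% of the cells kept after filtering, more than 1 target had at least 5 sgRNA UMIs.

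In the serine pathway, PHGDH oxidises the glycolytic intermediate 3-phosphoglycerate, PSAT1 transfers an amino group from glutamate to the product, and PSPH removes the phosphate to give serine. SHMT1 in the cytosol and SHMT2 in mitochondria split serine into glycine and a methylene group on tetrahydrofolate. MTHFD2 oxidises that unit to formyl folate in mitochondria, where MTHFD1L releases it as formate and ALDH1L2 oxidises it to carbon dioxide, and MTHFD1 uses formate in the cytosol for purine and thymidylate synthesis. ATF4 is a transcription factor of the integrated stress response and is known for activating serine and one-carbon genes in many cell types. The genes lie on chromosomes 1 (PHGDH, ENSG00000092621), 9 (PSAT1, ENSG00000135069), 7 (PSPH, ENSG00000146733), 17 (SHMT1, ENSG00000176974), 12 (SHMT2, ENSG00000182199, and ALDH1L2, ENSG00000136010), 14 (MTHFD1, ENSG00000100714), 2 (MTHFD2, ENSG00000065911) and 6 (MTHFD1L, ENSG00000120254). PGAM1 is the glycolytic enzyme that consumes 3-phosphoglycerate, the substrate of PHGDH.

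Promoter windows of the serine enzymes PHGDH and PSAT1 and of the mitochondrial folate enzymes MTHFD2 and MTHFD1L are shown. They are given because ATF4 is a DNA-binding protein and because PHGDH, PSAT1 and MTHFD2 moved together below. Each window runs from 250 bases before to 50 bases after the RefSeq start on GRCh38.p14, and RefSeq windows were matched for 6 of the 9 genes. None was matched for PSPH, SHMT2 and ALDH1L2, so their promoters were not searched for motifs. Capitals mark, on either strand, TGATGNAA, the core of the C/EBP-ATF response element, CACGTG, the E-box, and CCAAT, the CCAAT box; these motifs do not overlap one another in the printed windows. The PHGDH window is chr1:119711684-119711983, the PSAT1 window chr9:78296875-78297174, the MTHFD2 window chr2:74198365-74198664 and the MTHFD1L window chr6:150866236-150866535, all on the plus strand.
PHGDH: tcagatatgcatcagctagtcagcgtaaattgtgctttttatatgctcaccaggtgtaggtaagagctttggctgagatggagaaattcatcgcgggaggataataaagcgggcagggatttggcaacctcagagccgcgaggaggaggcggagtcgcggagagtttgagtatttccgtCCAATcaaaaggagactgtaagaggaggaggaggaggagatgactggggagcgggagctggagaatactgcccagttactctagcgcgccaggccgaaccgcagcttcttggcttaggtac
PSAT1: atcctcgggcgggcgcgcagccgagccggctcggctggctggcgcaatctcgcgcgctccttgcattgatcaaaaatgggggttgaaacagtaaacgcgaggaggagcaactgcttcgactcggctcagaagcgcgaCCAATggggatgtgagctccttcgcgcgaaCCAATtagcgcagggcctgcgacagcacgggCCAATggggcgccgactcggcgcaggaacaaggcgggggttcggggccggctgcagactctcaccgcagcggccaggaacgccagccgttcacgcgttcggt
MTHFD2: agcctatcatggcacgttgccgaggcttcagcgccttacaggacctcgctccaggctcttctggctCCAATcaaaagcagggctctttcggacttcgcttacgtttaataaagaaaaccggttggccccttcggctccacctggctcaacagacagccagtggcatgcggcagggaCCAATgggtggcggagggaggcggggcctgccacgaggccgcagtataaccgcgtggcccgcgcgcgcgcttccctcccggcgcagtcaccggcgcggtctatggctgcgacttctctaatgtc
MTHFD1L: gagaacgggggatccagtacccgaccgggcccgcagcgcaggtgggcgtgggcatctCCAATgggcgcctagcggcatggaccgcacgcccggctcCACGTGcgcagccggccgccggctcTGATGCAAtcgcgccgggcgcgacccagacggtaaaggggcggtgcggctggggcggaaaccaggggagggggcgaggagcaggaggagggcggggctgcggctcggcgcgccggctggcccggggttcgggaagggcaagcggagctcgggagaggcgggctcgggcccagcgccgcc

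The PSAT1 window held 3 CCAAT boxes, starting at -113, -83 and -52 from the transcription start, and the PHGDH window held 1, at -71. The MTHFD2 window held 2, at -184 and -74. The SHMT1 and MTHFD1 windows, not printed, also held 2 CCAAT boxes each, and the MTHFD1 window held an E-box at -15. A CCAAT box was thus found for each of the 6 genes with a window. A CCAAT box was present in 34.6% of the 35116 RefSeq windows of this length, an E-box in 7.26% and TGATGNAA in 3.62%. TGATGNAA was found in none of the windows of PHGDH, PSAT1, SHMT1, MTHFD1 and MTHFD2. It was found, as TGATGCAA, at -129 in the MTHFD1L window shown, with an E-box at -154 and a CCAAT box at -193, and the same bases lie in 2 further MTHFD1L windows that overlap it. These matches describe letters in the windows only.

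The matrix held 136071789 gene UMIs in 10847 barcodes. After filtering, 10142 cells remained, with a median of 12239.5 UMIs, and 5556 of them (54.8%) were assigned to 1 sgRNA. Gene counts were summed per sgRNA for the 34 sgRNAs with at least 20 cells, giving 267726 to 6430143 UMIs each, and 11570 genes were tested. Levels below are CPM, the counts of a gene scaled to 1000000 gene UMIs of the sgRNA, and the SD is over sgRNAs. They compare 1 gene between groups and are not set between genes. Against non-targeting sgRNAs the sgRNA's own target fell for ATF4 (log2 fold change -0.51), PGAM1 (-1.66) and CTNNB1 (-0.90) by edgeR, and JUN (-0.14), CTCF (-0.18) and MYC (0.62) did not pass the test. The epithelial markers of the line were expressed, with KRT18 at 4435 CPM and EPCAM at 268 CPM over all kept cells, whereas the lung lineage markers NKX2-1, NAPSA and SFTPB were each at or below 0.367 CPM. Of 4 fibroblast markers, COL1A2, COL3A1 and DCN had 0 UMIs and COL1A1 was at 1.90 CPM. Because all sgRNAs came from 1 culture, the p-values measure the spread between sgRNAs only, which may be technical.

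With ATF4 sgRNAs, 5 of the 8 tested genes fell relative to non-targeting sgRNAs and none rose, where 1.15% of all tested genes fell and 0.605% rose. The 5 were PHGDH, PSAT1 and PSPH, which form the whole route to serine, and the mitochondrial enzymes SHMT2 and MTHFD2. The cytosolic enzymes SHMT1 and MTHFD1 and the mitochondrial MTHFD1L did not pass the test. The median log2 fold change of the 8 genes was -0.33, against 0.003 over all 11570 genes. ALDH1L2 was too sparse to test. The median mitochondrial share per sgRNA was 9.28 to 11.2% with ATF4 sgRNAs, against 10.7 to 11.4% with non-targeting sgRNAs, and the summed epithelial markers were at 7765 to 8281 CPM with ATF4 sgRNAs, against 8348 to 9366 CPM with non-targeting sgRNAs. The part of the marker sum in these changes was not tested, and the comparison under a lower mitochondrial limit is given at the end.

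PSAT1, the aminotransferase of the route, had a lowest, median and highest level of 149.8, 167 and 194 CPM over the 6 ATF4 sgRNAs, against 248, 240.1, 251 and 241 CPM in the 4 non-targeting sgRNAs. All 6 ATF4 sgRNAs lay below all 4 non-targeting sgRNAs. The means were 168 ± 14.9 CPM with ATF4 sgRNAs (SD, n = 6) and 245 ± 5.37 CPM with non-targeting sgRNAs (SD, n = 4). PSAT1 fell by 0.56 ± 0.059 on the log2 scale (SE; edgeR adjusted p = 1.51e-10), and it had rank 3 of 11570 genes by p-value. Every one of the 28 sgRNAs of the other targets and controls was above the highest ATF4 sgRNA, the lowest of them at 221 CPM.

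PHGDH, the first enzyme of the route, had a lowest, median and highest level of 386, 414 and 477 CPM with ATF4 sgRNAs, against 594, 559, 567 and 545 CPM with non-targeting sgRNAs. The groups did not overlap. PHGDH fell by 0.46 ± 0.057 on the log2 scale (SE; edgeR adjusted p = 2.72e-08), with means of 419 ± 33.3 CPM for ATF4 sgRNAs (SD, n = 6) and 566 ± 20.5 CPM for non-targeting sgRNAs (SD, n = 4). Of the 28 other sgRNAs, 2 lay within the ATF4 range, CTCF sgRNA 3 at 397 CPM and CTNNB1 sgRNA 6 at 472 CPM, and these were summed over 48 and 32 cells.

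PSPH, the phosphatase that releases serine, had a lowest, median and highest level of 139, 159 and 199 CPM with ATF4 sgRNAs, against 201, 180.2, 201 and 156 CPM with non-targeting sgRNAs. The groups overlapped, with 1 of 6 ATF4 sgRNAs below all 4 non-targeting sgRNAs and 5 of 6 below their mean. It fell by 0.26 ± 0.070 on the log2 scale (SE; edgeR adjusted p = 0.0257). By edgeR this call was lost without ATF4 sgRNA 3 (adjusted p = 0.0807), without non-targeting sgRNA 1 (0.209) or 3 (0.112), and in cells with at most 10% mitochondrial UMIs (0.61).

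SHMT2, which feeds serine carbon into mitochondrial folate, had a lowest, median and highest level of 76.1, 82.7 and 94.3 CPM with ATF4 sgRNAs, against 100.3, 100.2, 131 and 111 CPM with non-targeting sgRNAs. All 6 ATF4 sgRNAs were below all 4 non-targeting sgRNAs. SHMT2 fell by 0.40 ± 0.080 on the log2 scale (SE; edgeR adjusted p = 0.00115). By edgeR the call was lost with the stricter sgRNA assignment, at -0.35 (adjusted p = 0.0525), at 10% mitochondrial UMIs, at -0.44 (0.0569), and in G1-scored cells alone, at -0.29 (0.208). Its cytosolic counterpart SHMT1 averaged 29.3 ± 4.20 CPM with ATF4 sgRNAs and 36.2 ± 5.90 CPM with non-targeting sgRNAs (SD, n = 6 and 4), and its log2 fold change of -0.22 (95% interval -0.45 to 0.01) did not pass the test.

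MTHFD2, the mitochondrial dehydrogenase and cyclohydrolase, had a lowest, median and highest level of 137, 148 and 165 CPM with ATF4 sgRNAs, against 214, 227, 217 and 166 CPM with non-targeting sgRNAs. The groups did not overlap, although the highest ATF4 sgRNA and non-targeting sgRNA 4 differed by less than 1 CPM. MTHFD2 fell by 0.50 ± 0.069 on the log2 scale (SE; edgeR adjusted p = 4.99e-07), and its log2 fold change was -0.56 without non-targeting sgRNA 4. MTHFD1L, the mitochondrial enzyme that makes formate, averaged 57.2 ± 9.52 CPM with ATF4 sgRNAs and 59.9 ± 7.07 CPM with non-targeting sgRNAs (SD, n = 6 and 4). Its log2 fold change of -0.18 (95% interval -0.38 to 0.03) did not pass the test.

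MTHFD1, the cytosolic enzyme that joins 3 folate reactions in 1 protein, averaged 31.4 ± 3.46 CPM with ATF4 sgRNAs and 25.7 ± 9.16 CPM with non-targeting sgRNAs (SD, n = 6 and 4). Non-targeting sgRNA 4, at 12.5 CPM, lay apart from the other 3 at 27.1, 33.4 and 29.8 CPM. The log2 fold change was 0.14 (95% interval -0.13 to 0.40) and 0.03 without that sgRNA, and neither passed the test. ALDH1L2, which oxidises formyl folate in mitochondria, had 36 UMIs in all kept cells, never more than 1 in a barcode, and 0.269 CPM. It had 2 UMIs in the ATF4 cells and 6 in the non-targeting cells, and 0 of 752369 UMIs in the MYC cells, which allows up to 3.99 CPM by counting error alone.

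**Figure D1:**
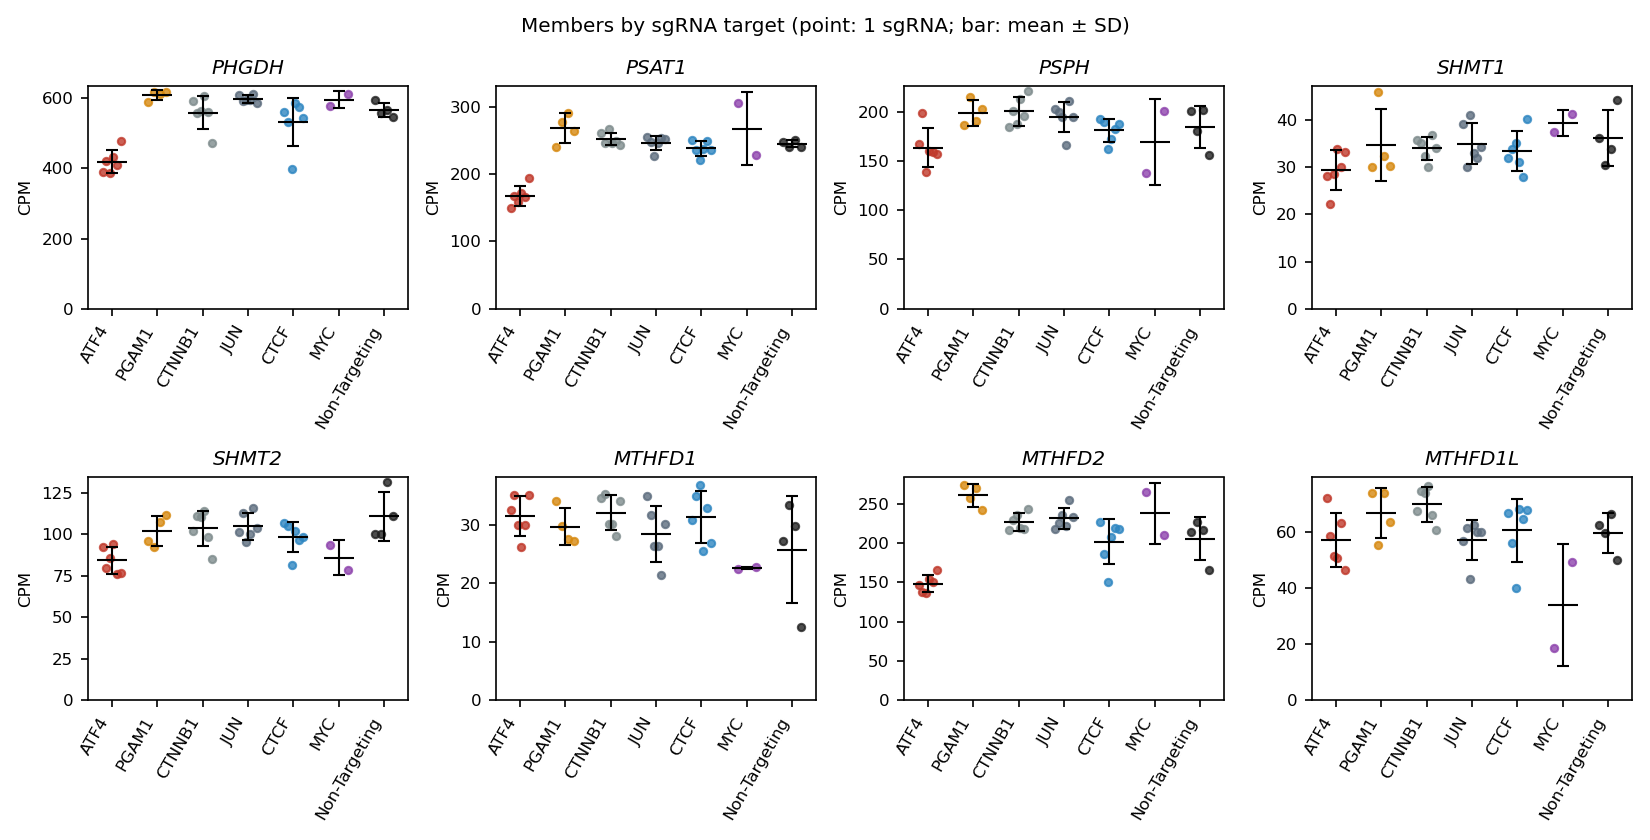
Level of each of the 8 tested genes by sgRNA target; each point is the CPM of 1 sgRNA (linear axis from 0), and the bar and whiskers are the mean ± SD over sgRNAs (ATF4, CTNNB1, JUN and CTCF n = 6, PGAM1 and Non-Targeting n = 4, MYC n = 2). For PSAT1 the 6 ATF4 sgRNAs sit at 149.8 to 194 CPM, below the points of every other target and of the non-targeting sgRNAs.

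The ATF4 transcript itself averaged 260.5 ± 47.0 CPM with ATF4 sgRNAs and 362 ± 15.5 CPM with non-targeting sgRNAs (SD, n = 6 and 4), a log2 fold change of -0.51 ± 0.070 (SE; edgeR adjusted p = 6.62e-07). Within the 6 ATF4 sgRNAs, the transcript and the enzymes did not fall in the same order. ATF4 sgRNA 6 had the lowest ATF4 transcript, 186 CPM, and the highest PSAT1, PHGDH and MTHFD2 of the 6, at 194, 477 and 165 CPM. ATF4 sgRNA 4 had the highest ATF4 transcript, 332 CPM, which lay above that of CTCF sgRNA 3, yet its PSAT1 was 172 CPM. These 6 values are given as a description, with no test.

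**Figure D2:**
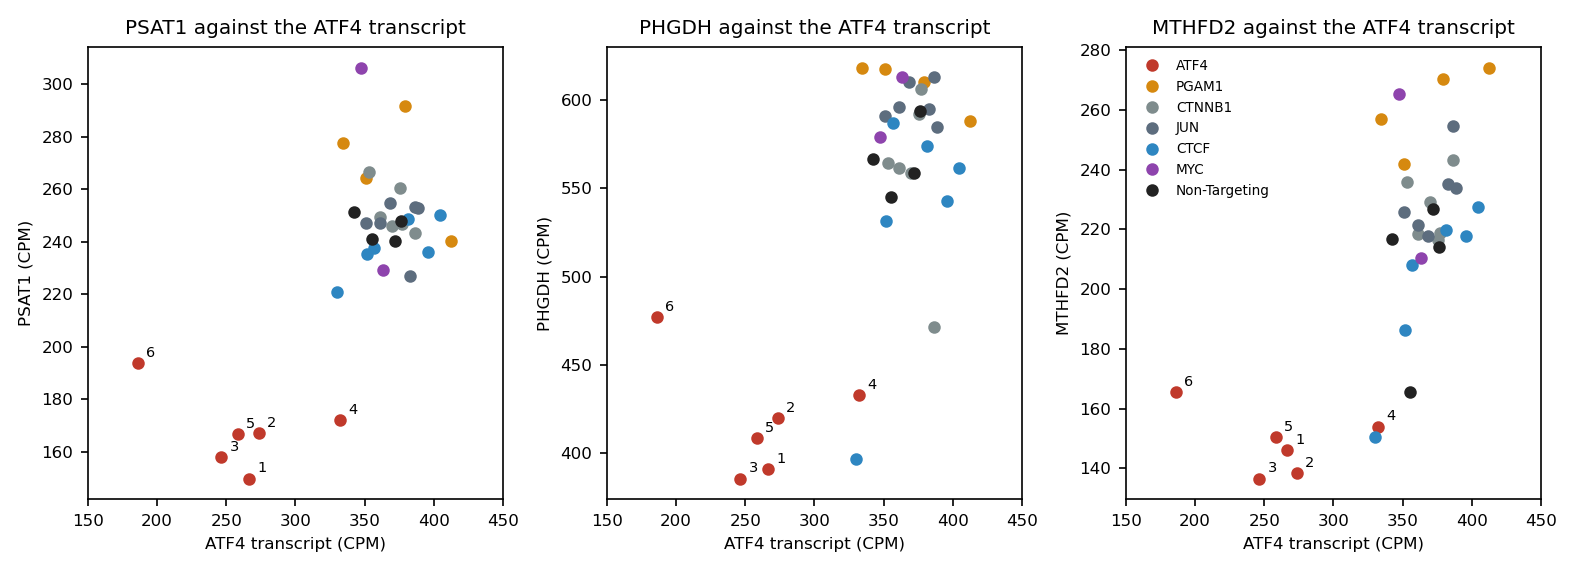
PSAT1, PHGDH and MTHFD2 (vertical axes, CPM) against the ATF4 transcript (horizontal axis, CPM) in 34 sgRNAs, coloured by target, with the ATF4 sgRNAs numbered; the axes do not start at 0. ATF4 sgRNA 6, at 186 CPM of ATF4 transcript, is the leftmost point and the highest of the 6 ATF4 sgRNAs in all 3 panels.

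The non-targeting group has only 4 sgRNAs, so ATF4 sgRNAs were also set against the 18 sgRNAs of CTNNB1, JUN and CTCF. Here 6 of 8 genes passed the test, all of them lower, where 5.48% of all tested genes passed it in either direction. This comparison shares the ATF4 sgRNAs with the one above. PSAT1 had a lowest, median and highest level of 149.8, 167 and 194 CPM with ATF4 sgRNAs, against 221, 247 and 266 CPM with the 18 others. The ranges did not overlap, and PSAT1 fell by 0.56 ± 0.045 on the log2 scale (SE; edgeR adjusted p = 1.08e-15). The log2 fold change was -0.46 for PHGDH (adjusted p = 6.7e-13), -0.57 for MTHFD2 (2.69e-13), -0.32 for SHMT2 (1.7e-04) and -0.28 for PSPH (1.21e-04) by the same edgeR test. The SHMT2 call was lost in G1-scored cells alone, at -0.22 (edgeR adjusted p = 0.13), and the PSPH call at 10% mitochondrial UMIs, at -0.24 (0.0718).

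MTHFD1L passed the test in this comparison, at -0.24 ± 0.077 (SE; edgeR adjusted p = 0.0446), with a lowest, median and highest level of 46.5, 55.1 and 72.3 CPM in ATF4 sgRNAs, against 40.0, 63.7 and 76.4 CPM in the 18 others. All 6 ATF4 sgRNAs lay within the range of the 18. The call was lost in 12 of the 24 fits that left out 1 sgRNA, with adjusted p up to 0.243, and by DESeq2 (0.0844). By edgeR it was also lost with the looser sgRNA assignment (adjusted p = 0.0919), at 10% mitochondrial UMIs (0.424) and in G1-scored cells alone (0.184). SHMT1, at -0.15 (95% interval -0.32 to 0.03), and MTHFD1, at -0.02 (-0.21 to 0.18), did not pass the test.

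PGAM1 sgRNAs address the other side of the branch point at 3-phosphoglycerate. None of the 8 genes passed edgeR's test against non-targeting sgRNAs, where 0.389% of all tested genes did; 1 of the 8 had an unadjusted p under 0.05 and DESeq2 called 1, giving MTHFD1 no adjusted p. Both tools picked MTHFD2. It had 274, 257, 270.4 and 242 CPM in the 4 PGAM1 sgRNAs, against 214, 227, 217 and 166 CPM in the 4 non-targeting sgRNAs. All 4 PGAM1 sgRNAs were above all 4 non-targeting sgRNAs. The log2 fold change was 0.28 ± 0.077 (SE) with an edgeR adjusted p of 0.097 and a DESeq2 adjusted p of 0.0374; it was 0.22 without non-targeting sgRNA 4.

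PSAT1 had 240.2, 277, 291 and 264 CPM in PGAM1 sgRNAs, against 248, 240.1, 251 and 241 CPM in non-targeting sgRNAs. The groups overlapped and the log2 fold change of 0.12 (95% interval -0.01 to 0.26) did not pass the test (edgeR adjusted p = 0.611). PHGDH, which shares its substrate with PGAM1, had 588, 618, 610.4 and 618 CPM in PGAM1 sgRNAs, against 594, 559, 567 and 545 CPM in non-targeting sgRNAs. Its log2 fold change was 0.08 (95% interval -0.05 to 0.21), which did not pass the test. In PGAM1 sgRNAs the PGAM1 transcript was at 53.2 to 102 CPM, against 204 to 213 CPM in non-targeting sgRNAs.

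Against the 18 sgRNAs of CTNNB1, JUN and CTCF, 0 of 8 genes passed edgeR's test with PGAM1 sgRNAs, where 0.830% of all tested genes did; 2 had an unadjusted p under 0.05, and DESeq2 called 1. MTHFD2 was at 0.21 ± 0.063 on the log2 scale (SE; edgeR adjusted p = 0.0997, DESeq2 adjusted p = 0.0329). PGAM1 cells also differed in composition. Their median mitochondrial share per sgRNA was 8.52 to 10.1%, against 10.7 to 11.4% for non-targeting sgRNAs, and their share of G1-scored cells was 45.9 to 55.6%, against 54.5 to 62.3% for non-targeting sgRNAs. Their summed epithelial markers were at 6443 to 7162 CPM, against 8348 to 9366 CPM for non-targeting sgRNAs. The part of these in the MTHFD2 values was not tested in the fit of all cells. In G1-scored cells alone the log2 fold change of MTHFD2 against non-targeting sgRNAs was 0.33 (edgeR adjusted p = 0.378). That fit did not hold PGAM1 sgRNA 1, which had only 17 G1-scored cells.

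The difference between the ATF4 and PGAM1 effects was tested directly. With ATF4 sgRNAs 4 of 8 genes were lower than with PGAM1 sgRNAs, where 1.55% of all tested genes were. MTHFD2 differed most, by -0.78 ± 0.076 on the log2 scale (SE; edgeR adjusted p = 2.84e-12), with 137 to 165 CPM in ATF4 sgRNAs, against 242 to 274 CPM in PGAM1 sgRNAs. PSAT1 differed by -0.68 (adjusted p = 2.67e-12), PHGDH by -0.54 (9.78e-10) and PSPH by -0.32 (0.0104) in the same edgeR fit. By edgeR the PSPH difference was lost without PGAM1 sgRNA 2 (adjusted p = 0.054) or 4 (0.101), with the stricter sgRNA assignment, at -0.29 (0.0944), and at 10% mitochondrial UMIs, at -0.27 (0.297). SHMT2, at -0.30, did not pass edgeR's test (adjusted p = 0.0624) and passed DESeq2's (0.0472).

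**Figure D3:**
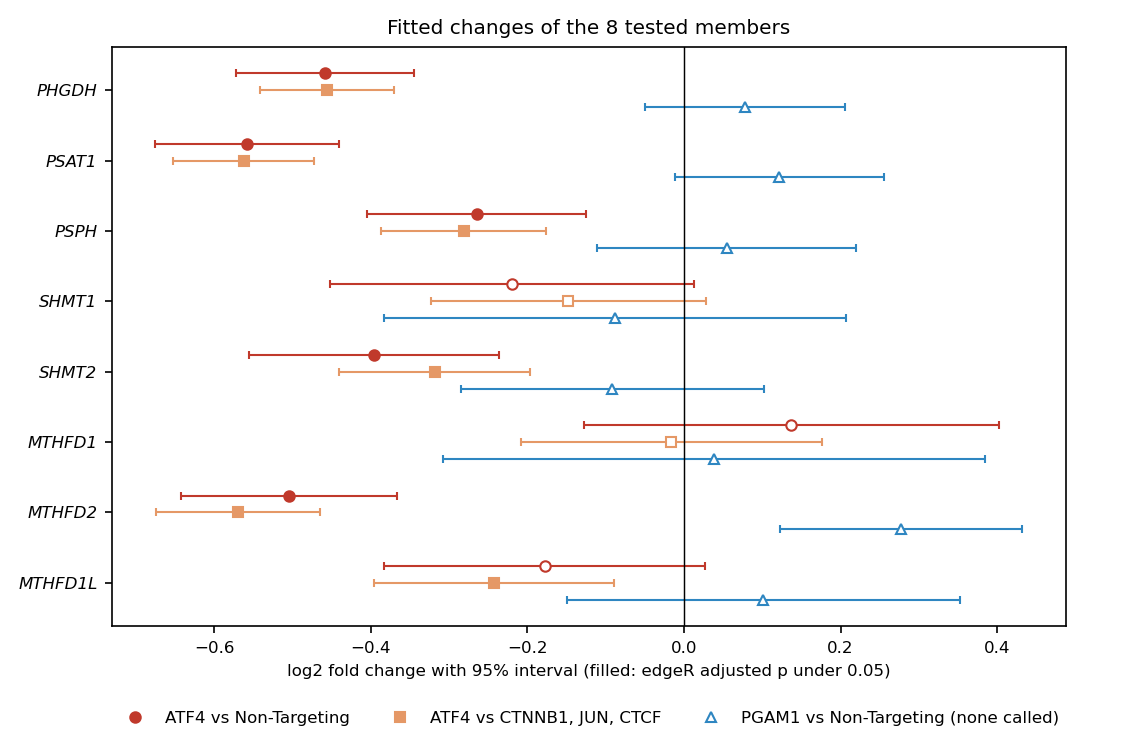
Fitted log2 fold change (horizontal axis) with its 95% interval for the 8 tested genes, from edgeR, for ATF4 sgRNAs against non-targeting sgRNAs, ATF4 sgRNAs against the CTNNB1, JUN and CTCF sgRNAs, and PGAM1 sgRNAs against non-targeting sgRNAs; filled symbols have an adjusted p under 0.05. PSAT1 sits at -0.56 in both ATF4 comparisons and MTHFD2 at 0.28 with PGAM1 sgRNAs.

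CTNNB1, JUN and CTCF sgRNAs gave no call among the 8 genes against non-targeting sgRNAs, by edgeR or by DESeq2, where 0.00864%, 0.00864% and 0.0259% of all tested genes passed edgeR's test. Over these 24 values, log2 fold changes ran from -0.12 (SHMT1 with CTCF sgRNAs) to 0.21 (MTHFD1L with CTNNB1 sgRNAs), the 95% intervals ran from -0.34 at the lowest to 0.44 at the highest, and 1 unadjusted p was under 0.05. MTHFD1L had a lowest, median and highest level of 60.8, 70.9 and 76.4 CPM with CTNNB1 sgRNAs, against 62.8, 59.9, 66.6 and 50.1 CPM with non-targeting sgRNAs; these ranges overlapped.

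PHGDH with JUN sgRNAs had a lowest, median and highest level of 585, 596 and 613 CPM, and with CTCF sgRNAs a lowest, median and highest level of 397, 552 and 587 CPM. The low value is CTCF sgRNA 3, which also had the lowest PSAT1 (221 CPM), MTHFD2 (150.5 CPM) and ATF4 transcript (330 CPM) of the 28 sgRNAs not directed at ATF4. Without it, the ATF4 comparison with the 18 sgRNAs gave log2 fold changes of -0.47 for PHGDH, -0.56 for PSAT1 and -0.58 for MTHFD2.

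MYC sgRNAs were thinly represented, with 23 and 45 cells. None of the 8 genes passed edgeR's test, nor DESeq2's, which gave SHMT1 and MTHFD1 no adjusted p, where 0.277% of all tested genes passed edgeR's; 2 had an unadjusted p under 0.05. MTHFD1L had 18.7 and 49.5 CPM in the MYC sgRNAs, against 62.8, 59.9, 66.6 and 50.1 CPM in non-targeting sgRNAs. Its log2 fold change was -0.69 (95% interval -1.26 to -0.12, edgeR adjusted p = 0.503), and it ran from -1.77 to -0.32 when 1 sgRNA was left out. SHMT2 had 93.4 and 78.4 CPM in the MYC sgRNAs, against 100.3, 100.2, 131 and 111 CPM in non-targeting sgRNAs, a log2 fold change of -0.40 (95% interval -0.79 to -0.02, edgeR adjusted p = 0.62). At this depth, changes of up to a log2 size of 1.26 lie within the intervals. Cells with MYC sgRNAs had median depths of 9654 and 10319 UMIs, against 12000 to 12656 for non-targeting sgRNAs, and the MYC transcript did not fall with them.

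Ordered by mean level, ATF4 sgRNAs were lowest for PHGDH, PSAT1, PSPH, SHMT1, SHMT2 and MTHFD2, and PGAM1 sgRNAs were highest for PHGDH, PSAT1 and MTHFD2. Some of these ranks were close to the thinly represented MYC sgRNAs. PSAT1 averaged 268.3 CPM with PGAM1 and 267.7 CPM with MYC sgRNAs. With ATF4 and MYC sgRNAs, SHMT2 averaged 84.1 and 85.9 CPM, and PSPH 163 and 169 CPM. For MTHFD2 the means were 148 ± 10.7 CPM with ATF4, 202 ± 28.8 CPM with CTCF, 227 ± 10.9 CPM with CTNNB1, 231 ± 13.2 CPM with JUN, 238 ± 38.7 CPM with MYC and 261 ± 14.6 CPM with PGAM1 sgRNAs, and 206 ± 27.3 CPM with non-targeting sgRNAs (SD). Apart from the ATF4 sgRNAs, none of these differed from the non-targeting sgRNAs past edgeR's threshold.

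Over the 34 sgRNAs, PHGDH, PSAT1 and MTHFD2 varied together, with Pearson correlations of 0.865 for PHGDH with PSAT1, 0.877 for PSAT1 with MTHFD2 and 0.86 for PHGDH with MTHFD2. Among the 28 sgRNAs not directed at ATF4 these were 0.352, 0.539 and 0.543. PSPH and MTHFD1L had 0.531 over all and 0.61 without the ATF4 sgRNAs. These correlations describe sums that share 1 culture and differ in depth. The 8 genes most like PSAT1 over the 34 sgRNAs, among 7700 with at least 10 CPM, were GARS (0.859), SLC16A4, DDIT4, PCK2, EIF4EBP1, HSPA8, RSL24D1 and NUPR1 (0.818). Those most like the mean z-score of the 8 tested genes were EIF4EBP1 (0.875), DDIT4, PCK2, EPRS, GARS, STC2, LOXL1 and IARS (0.793). GARS, EPRS and IARS are aminoacyl-tRNA synthetases, and PCK2 is the mitochondrial phosphoenolpyruvate carboxykinase. Every gene of the PSAT1 list also fell with ATF4 against non-targeting sgRNAs (edgeR adjusted p from 4.35e-09 for HSPA8 to 4.02e-05 for SLC16A4). So did every gene of the z-score list except STC2 (edgeR adjusted p = 0.161). Both rankings therefore contain the ATF4 comparison itself, and they were not computed without the ATF4 sgRNAs.

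In the lists of genes around the pathway, 3 of 48 tested genes passed edgeR's test with ATF4 sgRNAs against non-targeting sgRNAs, all of them lower, where 1.15% of all tested genes were lower. Of the 3, 1 is ATF4 itself, the target of these sgRNAs. By list, 0 of 13 tested folate genes, 0 of 2 glycine cleavage genes and 0 of 6 purine synthesis genes passed edgeR's test, each list with 1 unadjusted p under 0.05 and no DESeq2 call; DESeq2 gave no adjusted p for 7 of the folate and 1 of the purine genes. Of 14 serine transport and use genes 1 fell, the neutral amino acid transporter SLC1A5, at 68.5 ± 8.49 CPM with ATF4 sgRNAs and 92.5 ± 2.41 CPM with non-targeting sgRNAs (SD, n = 6 and 4; log2 fold change -0.48, edgeR adjusted p = 7.96e-05). Of 5 methionine cycle and transsulfuration genes 1 fell, CTH, which makes cysteine, at 7.30 ± 1.34 CPM with ATF4 sgRNAs and 17.3 ± 1.10 CPM with non-targeting sgRNAs (SD, n = 6 and 4; log2 fold change -1.23, edgeR adjusted p = 1.5e-04). DESeq2 also called SLC1A5 and gave CTH no adjusted p in this comparison. Of 8 integrated stress response regulators only ATF4 itself passed edgeR's test, and CEBPB, at -0.22, was at an adjusted p of 0.0504, and DESeq2 called both. With the other 5 targets, 0 of 240 values of these 48 genes passed edgeR's or DESeq2's test, 16 had an unadjusted p under 0.05 by edgeR, and 57 had no adjusted p from DESeq2. For these targets edgeR called 0.00864 to 0.389% and DESeq2 0 to 0.588% of all tested genes, so a list without a call is common here. The share of all genes with an unadjusted p under 0.05 was not counted.

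Against the CTNNB1, JUN and CTCF sgRNAs, 1 of 13 folate genes, 0 of 2 glycine cleavage genes, 2 of 14 serine transport and use genes, 3 of 5 methionine genes, 0 of 6 purine genes and 3 of 8 stress regulators fell with ATF4 sgRNAs by edgeR, the ATF4 transcript included. In this comparison 5.48% of all tested genes passed the test in either direction, and the folate count is near that share. Neither the glycine cleavage nor the purine genes had an unadjusted p under 0.05 or a DESeq2 call. SLC1A5 was at -0.49 on the log2 scale (edgeR adjusted p = 2.98e-08) and CTH at -1.11 (4.22e-06). AHCY, which hydrolyses S-adenosylhomocysteine, was at -0.18 on the log2 scale (edgeR adjusted p = 0.0241) and AHCYL1, an AHCY-like protein, at -0.20 (0.00208). Of the stress regulators CEBPB fell by 0.22 (edgeR adjusted p = 0.00147) and TRIB3, a pseudokinase, by 0.27 (0.00516) on the log2 scale. DESeq2 also called SLC1A5, CTH, AHCY, AHCYL1 and CEBPB here, and did not call TRIB3. SLC1A4, a serine transporter, was at -1.27 with a mean of 1.57 ± 1.06 CPM in ATF4 sgRNAs, against 3.79 ± 2.05 CPM in the 18 others (SD; edgeR adjusted p = 0.0114). It averaged 7.47 ± 2.32 CPM with PGAM1 sgRNAs (SD, n = 4), and the difference of ATF4 from PGAM1 sgRNAs was -2.16 (edgeR adjusted p = 9.83e-04). DESeq2 gave SLC1A4 no adjusted p in either comparison. Of all tested genes, 1.55% were lower with ATF4 than with PGAM1 sgRNAs. Against PGAM1 sgRNAs, 1 of 13 folate genes, 2 of 14 serine transport and use genes, 1 of 5 methionine genes and 2 of 8 stress regulators fell with ATF4 sgRNAs by edgeR. These included SLC1A5, at -0.53 (adjusted p = 2.24e-04), and CTH, at -1.30 (8.48e-04), to which DESeq2 gave no adjusted p. DDIT3, the stress transcription factor CHOP, was lower with ATF4 than with PGAM1 sgRNAs by -0.71 on the log2 scale (edgeR adjusted p = 0.0265). Among the stress regulators DESeq2 called DDIT3 and the ATF4 transcript here, and the latter is the target of the ATF4 sgRNAs. The share of S-scored cells was 4.42 to 16.3% over ATF4 sgRNAs, against 8.45 to 18.8% over the CTNNB1, JUN and CTCF sgRNAs; its part in these values was not tested.

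Position in the cell cycle was compared within sgRNAs, since one-carbon units are used for nucleotides. Cells were scored by lists of S and G2/M genes that hold none of the 9 genes, and 13 sgRNAs with at least 20 cells in each phase entered, of which 5 were CTNNB1, 3 CTCF, 2 ATF4, 2 JUN and 1 non-targeting. They held 1994 cells scored G1, 433 scored S and 1053 scored G2/M. In S-scored cells, 5 of the 8 genes were higher than in G1-scored cells, where 18.5% of the 8354 tested genes were higher, so a call by itself is common here.

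The largest of these were the 2 cytosolic enzymes. MTHFD1 had 22.4 ± 4.23 CPM in G1-scored, 54.4 ± 13.0 CPM in S-scored and 34.3 ± 4.73 CPM in G2/M-scored cells (SD, n = 13). In each of the 13 sgRNAs its S value exceeded its G1 value, with a log2 fold change of 1.22 ± 0.108 (SE; edgeR adjusted p = 2.24e-19). SHMT1 had 26.2 ± 5.29, 52.1 ± 7.06 and 37.5 ± 5.65 CPM in G1-, S- and G2/M-scored cells, again higher in S in 13 of 13 sgRNAs, with a log2 fold change of 0.94 ± 0.105 (SE; edgeR adjusted p = 1.08e-13). Both remained past the threshold under all 5 alternatives for this comparison.

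The mitochondrial enzymes and the serine route had smaller fitted differences between S- and G1-scored cells. MTHFD2 was higher by 0.25 on the log2 scale (edgeR adjusted p = 7.02e-06), SHMT2 by 0.20 (0.0104) and PSAT1 by 0.15 (0.00357), whereas PHGDH at 0.06, PSPH at 0.07 and MTHFD1L at 0.05 did not pass the test. PSAT1 lost its call under 3 of 5 alternatives, and SHMT2 without a filter on low counts, at 0.15 (edgeR adjusted p = 0.161), and at 10% mitochondrial UMIs, at 0.26 (0.239). MTHFD2 lost its call at 10% mitochondrial UMIs, at 0.15 (edgeR adjusted p = 0.446). CPM and fitted values differ here because the fit rescales each sum: PHGDH had 555 ± 54.0 CPM in S-scored cells and 500.4 ± 45.7 CPM in G1-scored cells (SD, n = 13), higher in 13 of 13 sgRNAs.

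In G2/M-scored cells all 8 tested genes differed from G1-scored cells, where 41.7% of all tested genes did. Of these, 7 were higher, where 20.3% of all tested genes were, and PSPH was lower, where 21.4% were. PHGDH had 647 ± 60.8 CPM in G2/M-scored cells and 500.4 ± 45.7 CPM in G1-scored cells (SD, n = 13; log2 fold change 0.28, edgeR adjusted p = 7.05e-17). PSPH had 176 ± 18.4 CPM in G2/M-scored cells and 192 ± 16.9 CPM in G1-scored cells (SD, n = 13), lower in 11 of 13 sgRNAs (log2 fold change -0.21, edgeR adjusted p = 1.25e-06). The other log2 fold changes were 0.52 for MTHFD1, 0.45 for SHMT1, 0.38 for MTHFD2, 0.34 for SHMT2, 0.24 for MTHFD1L and 0.18 for PSAT1. MTHFD1L lost its call with the stricter sgRNA assignment, at 0.15 (edgeR adjusted p = 0.23). In the 4 sgRNAs with enough cells at 10% mitochondrial UMIs, 2 of the 8 genes passed edgeR's test, PHGDH at 0.38 and MTHFD2 at 0.40, where 13.8% of the 6830 genes then tested did. The others were then at 0.43 for SHMT1, 0.19 for SHMT2, 0.16 for MTHFD1, 0.16 for PSAT1, 0.08 for MTHFD1L and -0.13 for PSPH.

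**Figure D4:**
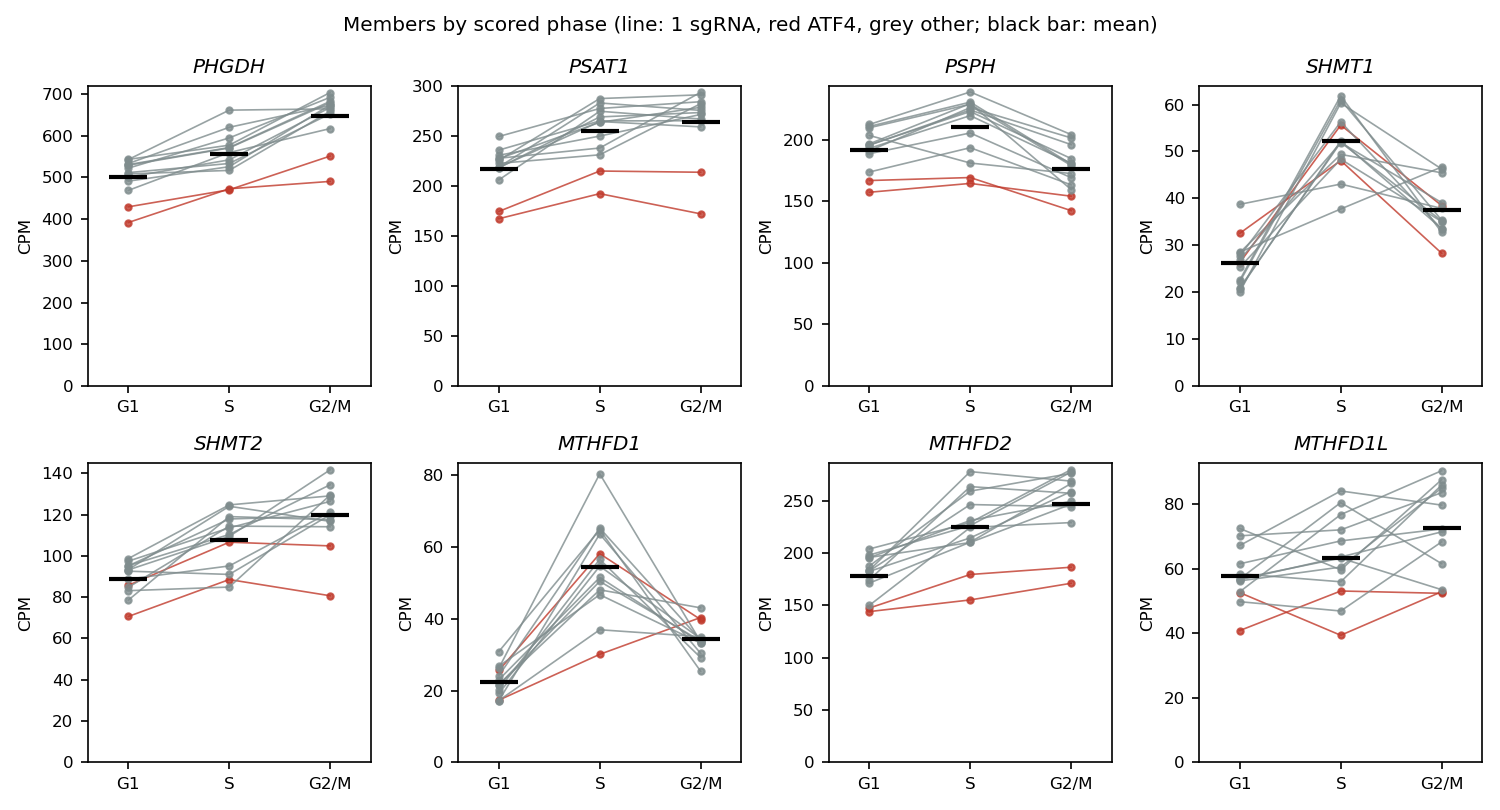
Level (CPM, linear axis from 0) of each of the 8 tested genes in cells scored G1, S and G2/M; each line joins the 3 values of 1 of 13 sgRNAs, red for the 2 ATF4 sgRNAs and grey for the others, and the black bar is the mean. MTHFD1 and SHMT1 peak in S, at means of 54.4 and 52.1 CPM. The red lines lie lowest for PHGDH, PSAT1, PSPH and MTHFD2 in each phase.

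Other folate and purine genes also differed by phase. Of all tested genes, 18.5% were higher in S-scored cells and 36% differed from G1-scored cells in either direction. In G2/M-scored cells 20.3% were higher and 21.4% were lower, so a few calls in a list are common here. In S-scored cells 5 of 9 tested folate genes were higher, among them MTHFS, which returns formyl folate to the pool, at 0.32 on the log2 scale, the methionine synthase MTR at 0.37 and GGH, which trims folate polyglutamates, at 27.7 ± 6.59 CPM in S-scored cells and 13.6 ± 2.85 CPM in G1-scored cells (SD, n = 13; log2 fold change 0.99). TYMS, which makes thymidylate, is 1 of the 5 but is on the S list used for scoring and so gives no test. Of 5 purine synthesis genes 4 were higher in S, with PAICS at 0.60, PPAT at 0.57, GART at 0.40 and ATIC at 0.18 on the log2 scale. Of 13 serine transport and use genes 1 was higher, the serine racemase SRR at 0.65, and 3 were lower, the mitochondrial serine transporter SFXN3 at -1.22, SPTLC2 of sphingolipid synthesis at -0.25 and SERINC3 at -0.23. Neither the 2 glycine cleavage genes nor the 5 methionine genes passed edgeR's test in S. In G2/M-scored cells 5 of 9 folate genes were higher, among them GGH by 0.91, MTHFS by 0.30 and FPGS, which adds glutamates to folate, by 0.59 on the log2 scale, and TYMS was again 1 of them. Of the 2 glycine cleavage genes GCSH was lower, at -0.42, and DLD higher, at 0.19. Of the 5 methionine genes MAT2A, which makes S-adenosylmethionine, was lower, at -0.39, and AHCY and CTH were higher, at 0.19 and 0.34. Among the serine transport and use genes SRR was higher, at 0.41, and SFXN3, SERINC5 and SPTLC2 were lower, at -0.82, -0.37 and -0.30. By edgeR 0 of the 5 purine genes passed the test in G2/M, the lowest adjusted p being 0.0699 for ATIC.

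Since these genes differed between scored phases, the ATF4 comparison was repeated in G1-scored cells alone. Against non-targeting sgRNAs the log2 fold changes were -0.56 for PSAT1 (edgeR adjusted p = 8.82e-06), -0.44 for PHGDH (2.6e-04), -0.43 for MTHFD2 (0.00312) and -0.36 for PSPH (0.00878), and SHMT2 at -0.29 did not pass the test (0.208). In cells with at most 10% mitochondrial UMIs, 3 of the 8 genes fell, PSAT1 at -0.55, PHGDH at -0.39 and MTHFD2 at -0.47, where 0.73% of the 8767 genes then tested passed edgeR's test in either direction. SHMT2, at -0.44 (edgeR adjusted p = 0.0569), and PSPH, at -0.17 (0.61), did not pass it.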

How the data were processed

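The deposited file is 1 matrix of UMI counts per gene, sgRNA and barcode, deposited by the authors; per the file headers it came from Cell Ranger 6.1.2, and the submitters' processing notes name hg38. Cells with at least 1000 gene UMIs, 500 genes and at most 20% mitochondrial UMIs were kept, leaving out 705 barcodes. A cell was assigned to an sgRNA holding at least 5 UMIs and 80% of its sgRNA UMIs, and no doublet caller was run. Counts were summed per sgRNA, the unit of replication, and sgRNAs with at least 20 cells were fitted together with edgeR 4.0.16 (TMM scaling, quasi-likelihood test, Benjamini-Hochberg adjustment over all tested genes, threshold 0.05) in R 4.3.3. DESeq2 1.42.0 was an alternative. Phases were scored with scanpy 1.11.5, and the phase fit had the sgRNA as a block. The fits were tested on simulated data. The 9 genes and the gene lists were chosen with earlier results of these data known. Named were all 9 genes, the 6 targeted transcripts, list genes past the threshold in the ATF4 and phase comparisons and the 8 genes most like PSAT1 or the members' mean. Intervals and floors cover counting error or the spread of sgRNAs only. RefSeq names pseudogene copies of PSAT1 (4), PSPH (1), SHMT1 (1), MTHFD1 (1) and MTHFD2 (7); none is a row of the matrix, and the handling of their reads is not stated by these sources. Values of 1 gene of the folate list, past the threshold in some comparisons, are not reported here.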

Additional observations from a re-analysis of the deposited data

Results flagged for a closer look

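Single sgRNAs stood apart from the others of their target in 6 of the 48 sets of 4 or 6 sgRNAs examined, where chance gives about 1 in 20 sets. PHGDH was at 397 CPM in CTCF sgRNA 3, against 531 CPM in the nearest other CTCF sgRNA. PHGDH was at 472 CPM in CTNNB1 sgRNA 6, with the nearest at 559 CPM. PSAT1 was at 227 CPM in JUN sgRNA 3, with the nearest at 247 CPM. PSPH was at 166 CPM in JUN sgRNA 4, with the nearest at 194 CPM. SHMT1 was at 46.0 CPM in PGAM1 sgRNA 2, with the nearest at 32.4 CPM. MTHFD1L was at 43.3 CPM in JUN sgRNA 3, with the nearest at 56.9 CPM. These sgRNAs had between 32 and 177 cells.

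The effects of different targets also differed past edgeR's threshold. Between ATF4 and PGAM1 sgRNAs the log2 difference was -0.54 for PHGDH, -0.68 for PSAT1, -0.32 for PSPH and -0.78 for MTHFD2. Between ATF4 sgRNAs and the CTNNB1, JUN and CTCF sgRNAs it was -0.46 for PHGDH, -0.56 for PSAT1, -0.28 for PSPH, -0.32 for SHMT2, -0.57 for MTHFD2 and -0.24 for MTHFD1L.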

How the results depend on the processing

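Over 48 chosen pairs of gene and comparison, 720 of 776 alternative values kept their direction and their side of the threshold. Of the rest, 42 lost the call, 6 gained it and 8 changed sign. The 720 include values of uncalled pairs that stayed uncalled. The 40 other pairs were all uncalled in the reported fit. Over their 752 alternative values, 0 were called and 71 changed sign. With at most 10% mitochondrial UMIs, the number of the 8 genes called was 3 for ATF4 against non-targeting sgRNAs, 2 for S against G1 and 2 for G2/M against G1, the phase fit then holding 4 sgRNAs. Of all genes tested under that limit, 0.73%, 14.9% and 13.8% were called in these comparisons. DESeq2 called 1 gene for PGAM1 sgRNAs against non-targeting sgRNAs and 1 against the CTNNB1, JUN and CTCF sgRNAs. It called 0.432% and 1.07% of all tested genes there. Without a filter on low counts 3 genes were called for S against G1, where 15.4% of all genes then tested were. With 1 sgRNA left out, 4 to 5 genes were called for ATF4 against non-targeting sgRNAs, 5 to 6 against the CTNNB1, JUN and CTCF sgRNAs and 3 to 5 against PGAM1 sgRNAs; the counts of the other targets stayed at 0. In these ATF4 fits 1.17 to 2.05%, 3.77 to 6.28% and 1.71 to 3.16% of all tested genes were called. Where sign changed among the 48 pairs, the main value was uncalled. These main values ran from -0.13 for SHMT1 to 0.099 for MTHFD1, both for ATF4 against PGAM1 sgRNAs. MTHFD1 for ATF4 against the CTNNB1, JUN and CTCF sgRNAs was 0.0696 with looser assignment and 0.0548 in G1-scored cells. It ran from -0.0874 to 0.0629 with 1 sgRNA left out. Against PGAM1 sgRNAs at 10% mitochondrial UMIs, SHMT1 was 0.0473 and MTHFD1 -0.0808. For S against G1, MTHFD1L was -0.0022 without a filter and -0.23 at 10% mitochondrial UMIs, where PHGDH was -0.0009. The causes were not tested; the stricter mitochondrial limit left fewer cells and sgRNAs.

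Without a filter the median of all genes for S against G1 was -0.11 on the log2 scale, against -0.01 with it. Genes changed over all tested ranged over the alternatives from 64 to 308 for ATF4 and from 18 to 91 for PGAM1 against non-targeting sgRNAs (203 and 45 in the reported fit). They ranged from 0 to 6 for CTNNB1, 0 to 15 for JUN, 0 to 37 for CTCF and 1 to 92 for MYC. No paired analysis was possible because the labels give the targets no shared replicate numbers and an sgRNA's number pairs it with no sgRNA of another target. In the phase fit, where the block is the sgRNA, leaving out the replicate block gave 5 and 8 genes, as with it. Without the block 35.3% and 40.3% of all tested genes were called. For MYC sgRNAs at 10% mitochondrial UMIs the comparison was not run, since no MYC sgRNA then had 20 cells.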
